A study of Homo sapiens with 15 samples.

Results

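Loss of the methylosome was examined in HSC-5, a human cutaneous squamous cell carcinoma line, by setting all libraries made after CRISPR knockout of either methylosome gene against the control libraries. Libraries were taken by their labelled guide. Of the 15 RNA-seq libraries of the study, 12 carried a knockout guide and 3 carried sgNeg, an empty vector control labelled WT. The knockout libraries were 3 replicates each of sgPRMT5-1 and sgPRMT5-2, labelled PRMT5 Knockout, and 3 each of sgWDR77-1 and sgWDR77-2, labelled WDR77 Knockout. The treatment label was Neomycin in all 5 conditions, the control included, and the study states that its cell lines carry inactivating p53 mutations. Its methods describe G418 selection after infection for growth assays, and the selection of the cells sequenced here is known only from that label. Whether the knockouts were clones or pools, and the time from infection to harvest, are not given in the sources used here. The libraries held between 5146711 and 6730428 counts on genes. The question was which transcripts changed in the same direction with each of the 4 guides.

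PRMT5 is the enzyme that places symmetric dimethyl marks on arginine, and WDR77 is the WD-repeat partner that binds it and helps it hold its substrates. Together they form the methylosome, which methylates Sm proteins of the splicing machinery as well as histones. In squamous epithelium the dividing layer is the basal layer, marked by the transcription factor p63 (TP63) and the keratins KRT5 and KRT14, and cells that leave it switch to other keratins and to proteins of the cornified envelope. CDKN1A encodes p21, an inhibitor of cyclin-dependent kinases.

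The guide sequences were not held. The study gives the first WD repeat as the target region in WDR77 and the catalytic domain as that in PRMT5. The study also recoded 6 neighboring codons of each cDNA to make it resistant to CRISPR. Those codons are shown in capitals, since they place the region that the study protected, within the hg38 reference read along the coding strand. The PRMT5 stretch lies on the minus strand at chr14:22924278-22924337 in exon 11 of 17, with the capitals at codons 385 to 390. The WDR77 stretch lies on the minus strand at chr1:111448662-111448721 in exon 2 of 10, with the capitals at codons 74 to 79.
PRMT5: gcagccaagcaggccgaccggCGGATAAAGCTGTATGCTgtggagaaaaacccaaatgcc
WDR77: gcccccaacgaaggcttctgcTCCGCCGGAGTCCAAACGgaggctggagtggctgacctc

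The transcripts of the targeted genes were compared with the labels first. Levels are given as CPM, counts scaled to library size with TMM factors, which correct for differences in composition. PRMT5 was at 59.1, 49.6 and 67.8 CPM in the 3 sgNeg libraries, at 33.0, 35.8 and 41.4 CPM with sgPRMT5-1 and at 44.1, 44.5 and 39.4 CPM with sgPRMT5-2. All 6 libraries of the PRMT5 guides were below all 3 sgNeg libraries, while PRMT5 in those of the WDR77 guides, between 54.4 and 79.9 CPM, overlapped sgNeg. WDR77 was at 125, 114 and 119 CPM in sgNeg, at 30.9, 52.0 and 53.3 CPM with sgWDR77-1 and at 26.6, 24.9 and 22.0 CPM with sgWDR77-2. The 6 libraries of the WDR77 guides held less WDR77 transcript than any other library. Each target's transcript was thus lower under its own guides, and the remaining protein was not measured here. The study describes the sequenced cells as complete knockouts checked by qRT-PCR. From blots that included HSC-5, it reports less PRMT5 and WDR77 protein after depletion of either target.

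**Figure D1:**
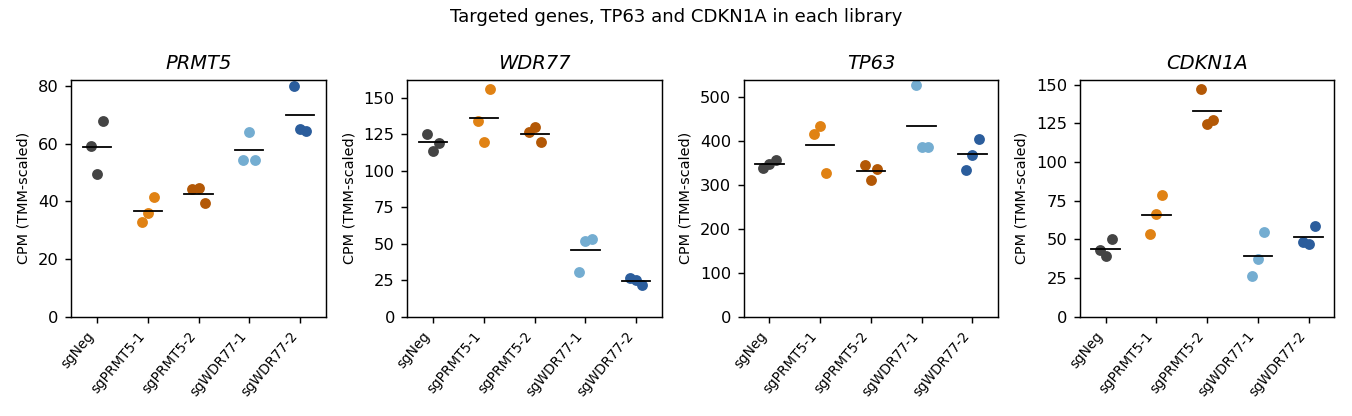
Level of PRMT5, WDR77, TP63 and CDKN1A (CPM, TMM-scaled, linear axes from 0) in each of the 15 libraries, with points for libraries and a line for the mean of each condition. PRMT5 and WDR77 were below sgNeg in the 6 libraries of their own guides, and the highest CDKN1A levels were those with sgPRMT5-2.

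TP63 was at 339, 348 and 355 CPM in sgNeg, and in the 12 knockout libraries its lowest, median and highest levels were 311, 377 and 528 CPM. The groups overlapped, and the log2 fold change of TP63 over the 4 guides was 0.12 (SE 0.09, limma adjusted p = 0.438). CDKN1A was at 43.0, 39.0 and 49.9 CPM in sgNeg and at 147, 125 and 127 CPM with sgPRMT5-2. Over the 4 guides CDKN1A had a log2 fold change of 0.55 (SE 0.15, limma adjusted p = 0.0149), but its sign differed among them, with 0.58 for sgPRMT5-1, 1.60 for sgPRMT5-2, -0.21 for sgWDR77-1 and 0.23 for sgWDR77-2. The call of CDKN1A was lost in 6 of 31 other settings, among them without sgNeg replicate 1, without sgNeg replicate 2 and without sgPRMT5-2. The CDKN1A levels of the PRMT5 guides exceeded those of the WDR77 guides by a log2 difference of 1.08 (limma adjusted p = 2.47e-06).

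The comparison over all guides covered 14061 genes with a mean normalized count of at least 3. A gene was called at a Benjamini-Hochberg adjusted p under 0.05 in limma voom, with the mean of the 4 guides (weight 0.25 each) set against sgNeg. Higher calls numbered 859 (6.11% of the genes tested) and lower calls 1099 (7.82%). A positive change with each of the 4 guides was found for 754 of the higher calls (5.36% of the genes tested), and a negative change with each for 1007 of the lower calls (7.16%). The sign is that of the fitted change, which need not be called with each guide and can be near 0. Tested against sgNeg, sgPRMT5-2 called 664 of the 754 genes, while sgPRMT5-1, sgWDR77-1 and sgWDR77-2 called 134, 217 and 192. For the 1007 genes the calls were 863 with sgPRMT5-2 and 198, 433 and 363 with those guides. Exactly 1 guide called 422 of the 754 and 445 of the 1007 genes, and no guide called 13 and 39. All guides were compared with the same 3 sgNeg libraries, so their signs are not independent of each other. The changes of the same sign were unequal in size, with a median log2 fold change of 0.38 for the 754 genes, -0.70 for the 1007 genes and 0.00 over all genes tested. Of the lower genes 339 had a log2 fold change of -1 or below, and of the higher genes 42 had one of 1 or above. The knockout libraries all lay above sgNeg for 254 of the genes called higher (1.81% of the genes tested) and all below it for 344 of the genes called lower (2.45%).

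These counts depend on the spread that is used and on the control libraries. With the 12 knockout libraries fitted as 1 group, so that differences between guides enter the spread, 89 genes were called higher and 324 lower, and all of them were among the 754 and 1007 genes. In that fit KRT5, KRT15, KRT13, KRT6A, KRT7, KRT19, MMP13, BMP7, MXRA5, COL5A1, CD74, CIITA, IGF2BP1, IGF2BP3, H19, ALDH3A1, AKR1C2, LIF, GADD45A, P3H2 and OAT remained called, while IL1A, IL1B, COL4A2, FGFR3, F3 and SLIT2 were among those that did not. Higher calls made up 43.9% of all calls as reported, 55.7% with upper-quartile factors and 30.5% with library totals alone, and the median of all genes moved to 0.05 and -0.04 in these. Gene list medians nearer to 0 than that have no set direction. Without sgNeg replicate 1, 2 or 3 the higher calls numbered 295, 322 or 374 and the lower calls 693, 795 or 931. The genes with the same sign in all 4 guides then numbered 269, 298 or 336 higher, and 665 lower without sgNeg replicate 1. Without sgPRMT5-2 replicate 2 there were 571 higher calls, and without sgNeg replicate 3 the genes called lower with no overlap numbered 528. Leaving out the guide sgPRMT5-2 gave 189 higher and 488 lower calls, and leaving out sgWDR77-1 gave 1624 and 1931.

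**Figure D2:**
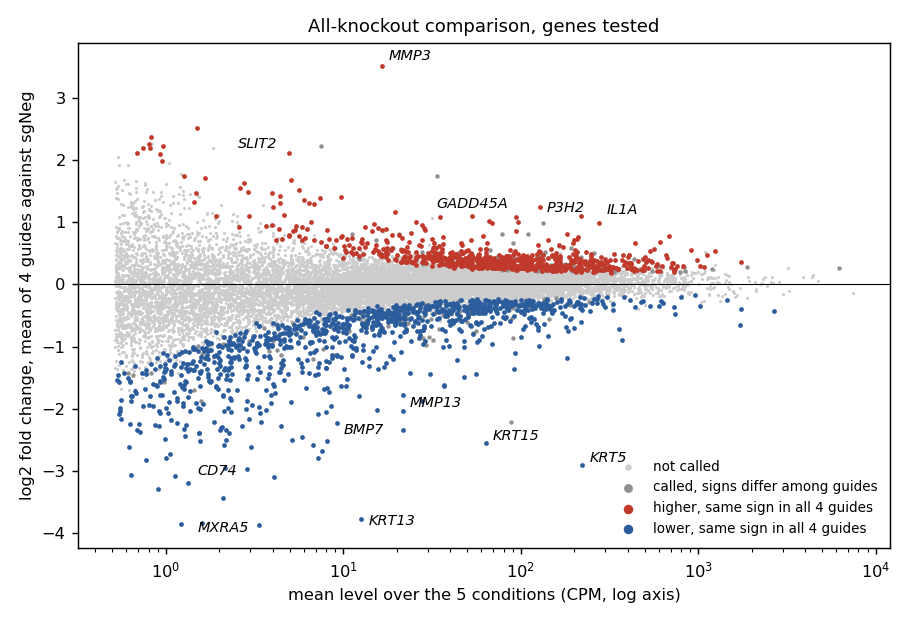
Log2 fold change of the mean of 4 guides against sgNeg (vertical axis) over the mean level of each gene in the 5 conditions (CPM, log axis), with each point a gene tested. The 754 genes higher in all 4 guides are red and the 1007 lower ones are blue, and the blue points extend further from 0 than most red points.

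The basal keratins KRT5 and KRT15 were lower with every guide. KRT5, the type II keratin of basal cells, was at 512, 638 and 817 CPM in sgNeg, and in the knockout libraries its lowest, median and highest levels were 33.8, 71.6 and 335 CPM. No knockout library reached the lowest sgNeg library, and the lowest KRT5 levels were those with sgWDR77-1 (43.4, 42.8 and 33.8 CPM). The log2 fold change of KRT5 over the guides was -2.91, a 7.51-fold fall (SE 0.12, limma adjusted p = 1.34e-13), and it was -1.27, -3.53, -4.01 and -2.82 with sgPRMT5-1, sgPRMT5-2, then sgWDR77-1 and sgWDR77-2. KRT15, a type I keratin of basal cells, was at 196, 114 and 188 CPM in sgNeg and between 4.82 and 79.4 CPM in the knockouts. KRT15 was lowest with the PRMT5 guides, and their log2 difference from the WDR77 guides was -2.28 (limma adjusted p = 1.91e-07). KRT5 differed between the targets in the other direction, with a log2 difference of 1.02 (limma adjusted p = 3.45e-06).

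KRT13, a keratin of the upper layers of moist stratified epithelia, was at 45.5, 33.7 and 52.4 CPM in sgNeg and between 0.685 and 12.8 CPM in the knockouts. KRT6A, a keratin of activated epidermis, was at 16.9, 16.3 and 30.8 CPM in sgNeg and between 0.777 and 9.17 CPM in the knockouts. KRT6A has near-identical copies, so its counts are uncertain. Of 6 stratified and stress keratins tested, these 2 were lower and KRT80 was higher in all 4 guides, and the median of the list was -0.30. Among all genes tested 7.16% were lower and 5.36% higher in this way. The call of KRT80 was lost in 12 of 31 other settings, among them without sgNeg replicate 1 and without sgNeg replicate 2. KRT17, KRT16 and KRT10 were not called. KRT17, the most abundant of them, had a log2 fold change of 0.20 over the guides (limma adjusted p = 0.0670), and of 0.11, -0.16, -0.00 and 0.83 with sgPRMT5-1, sgPRMT5-2, then sgWDR77-1 and sgWDR77-2. Of 4 simple epithelial keratins, KRT19 was lower and KRT7 higher in all 4 guides, against the same 7.16% and 5.36%, with a list median of -0.01. KRT19 was at 566, 559 and 632 CPM in sgNeg and between 239.8 and 448 CPM in the knockouts. KRT7 rose from 22.9, 13.97 and 18.3 CPM to between 29.5 and 52.0 CPM, again with no overlap.

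Of the 22 basal epidermal genes tested, 6 were lower and 4 higher in all 4 guides, against 7.16% and 5.36% of all genes tested. Both shares were above those of all genes, and the list median was -0.03. The lower ones were KRT5, KRT15, the growth factor receptor FGFR3, the desmosomal cadherin DSG3, the Notch ligand JAG2 and the laminin chain LAMA3. FGFR3 was at 73.7, 62.0 and 73.6 CPM in sgNeg and between 4.06 and 56.2 CPM in the knockouts, lowest with sgPRMT5-2. The higher ones included BNC1, DST and ITGB4, with log2 fold changes of 0.48, 0.42 and 0.23. Of 24 tested genes of differentiation and the cornified envelope, 3 were lower in all 4 guides, against 7.16% of all genes tested. The list median was -0.01. The 3 lower ones were LY6D, a surface antigen of squamous cells, and KLK7 and KLK8, proteases that act in shedding of cornified cells. LY6D was at 5.93, 4.44 and 6.35 CPM in sgNeg and at most 3.06 CPM in the knockouts.

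**Figure D3:**
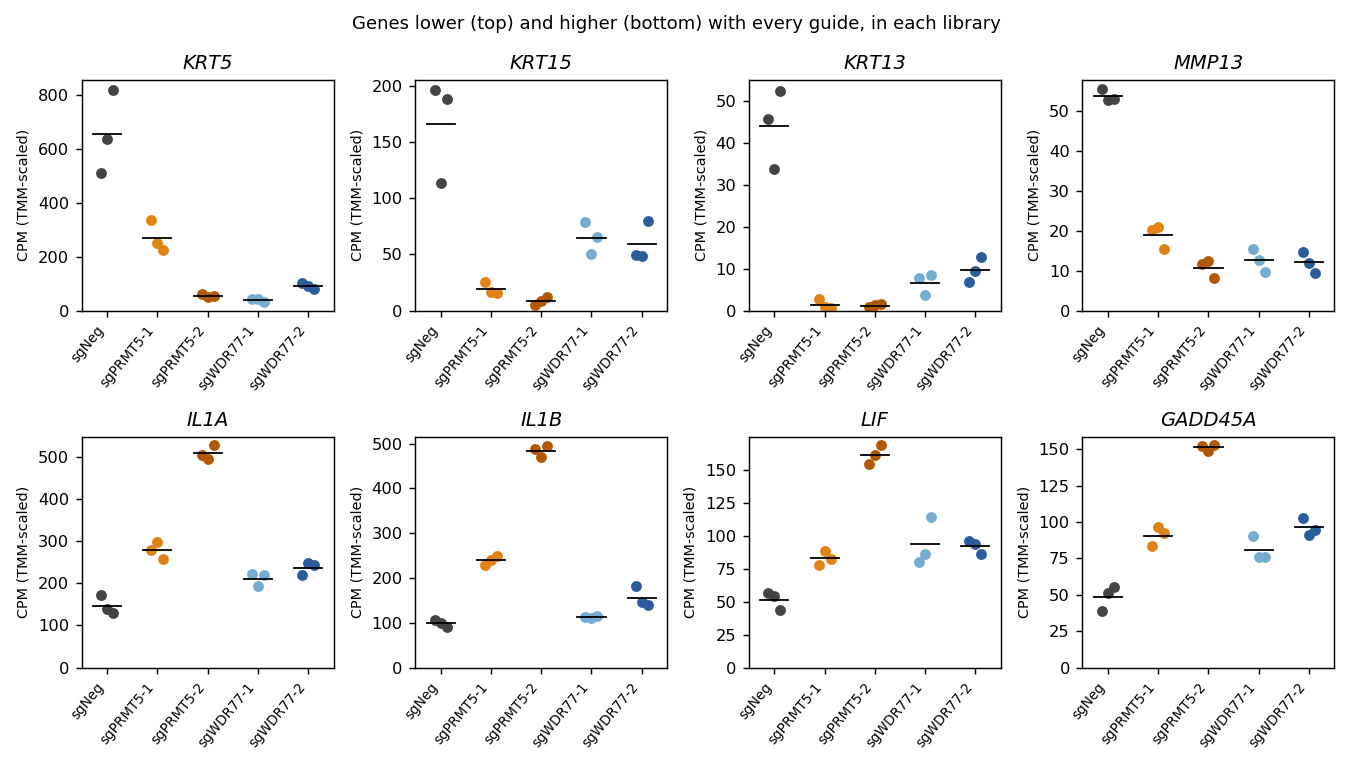
Level of 8 genes (CPM, TMM-scaled, linear axes from 0) in each of the 15 libraries, with points for libraries and a line for the mean of each condition. For KRT5, KRT15, KRT13 and MMP13 (top) the 12 knockout libraries lay below the 3 sgNeg libraries, and for IL1A, IL1B, LIF and GADD45A (bottom) they lay above them.

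Of 33 cytokines and chemokines tested, 9 were higher and 2 lower in all 4 guides, against 5.36% and 7.16% of all genes tested, so that the lower share was near that of all genes. The median of the list was 0.34. IL1A, a cytokine that keratinocytes store and release on damage, was at 173, 139 and 129 CPM in sgNeg and between 192.5 and 528 CPM in the knockouts. The IL1A levels did not overlap, and the log2 fold change was 0.99 (SE 0.08, limma adjusted p = 2.53e-08). IL1B, its secreted relative, was at 107, 100.1 and 90.9 CPM in sgNeg, at 488, 470.0 and 495 CPM with sgPRMT5-2 and at 113, 111 and 116 CPM with sgWDR77-1. The last values lay just above sgNeg, and sgWDR77-1 alone did not call IL1B. LIF, a cytokine of the interleukin-6 family, was at 56.4, 54.6 and 43.5 CPM in sgNeg and between 77.9 and 169 CPM in the knockouts, and every guide alone called it.

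IL32, TNFSF15 and HBEGF were also higher, with log2 fold changes of 1.40, 1.17 and 1.10. TNFSF15 is a ligand of the TNF family and HBEGF a ligand of the EGF receptor. TNFRSF9, a receptor of the TNF receptor family, had a log2 fold change of 1.31. The 2 lower list members were CX3CL1, a membrane-bound chemokine, and IL1RN, which encodes the antagonist of the interleukin-1 receptor, with log2 fold changes of -2.60 and -0.59. IL24, CSF2, AREG and IL6 were called higher but with signs that differed among the guides.

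The starts of IL1A and IL1B are shown because these neighboring genes rose together, and that of KRT5 because it had the smallest adjusted p among the genes named here. Each sequence is the 250 bases before the RefSeq start (GRCh38.p14, minus strand) at chr12:52520395-52520644 for KRT5, chr2:112784494-112784743 for IL1A and chr2:112836780-112837029 for IL1B. The AP-1 motif TGANTCA, searched on both strands, is in capitals. It occurs in 1 place before IL1A and in neither other window, and 6.57% of 35116 windows of this length hold it. A kappaB motif searched in the same way was found in none of the 3 windows, and 1.40% of all windows hold it.
KRT5: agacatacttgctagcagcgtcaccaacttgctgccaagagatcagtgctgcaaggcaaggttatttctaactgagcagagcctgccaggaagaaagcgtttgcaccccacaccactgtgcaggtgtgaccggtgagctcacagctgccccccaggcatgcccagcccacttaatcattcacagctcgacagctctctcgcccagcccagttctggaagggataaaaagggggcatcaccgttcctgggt
IL1A: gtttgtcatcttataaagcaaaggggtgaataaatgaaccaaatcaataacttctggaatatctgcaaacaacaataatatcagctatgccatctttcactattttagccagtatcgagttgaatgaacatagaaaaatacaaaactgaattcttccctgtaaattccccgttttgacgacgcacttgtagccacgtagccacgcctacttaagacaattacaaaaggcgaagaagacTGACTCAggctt
IL1B: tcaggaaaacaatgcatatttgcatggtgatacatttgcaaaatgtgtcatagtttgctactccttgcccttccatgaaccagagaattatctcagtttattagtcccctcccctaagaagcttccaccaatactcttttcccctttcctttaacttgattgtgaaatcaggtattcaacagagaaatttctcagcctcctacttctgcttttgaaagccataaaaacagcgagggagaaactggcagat

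Of 34 collagens and other matrix genes tested, 14 were lower and 7 higher in all 4 guides, against 7.16% and 5.36% of all genes tested, so both shares were above those of all genes. The median of the list was -0.34. MXRA5, a matrix protein, was at 10.7, 16.4 and 11.2 CPM in sgNeg and at most 2.55 CPM in the knockouts. COL5A1, a fibrillar collagen chain, was at 21.8, 22.7 and 20.5 CPM in sgNeg and between 0.963 and 12.4 CPM in the knockouts. COL4A2, a chain of basement membrane collagen, was at 167, 164 and 161 CPM in sgNeg, and no knockout library reached these levels. The WDR77 guides held COL4A2 between 31.2 and 44.3 CPM and the PRMT5 guides between 93.1 and 149.6 CPM, a log2 difference of 1.51 (limma adjusted p = 7.35e-11). The higher members included the adhesive glycoproteins FN1 and TNC, with log2 fold changes of 0.72 and 1.43. CCN1, another of them, was at 802, 882 and 1026 CPM in sgNeg and between 991 and 1669 CPM in the knockouts, with overlap.

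MMP13, a collagenase, was lower with each guide, least with sgPRMT5-1, and differed among the guides (limma adjusted p = 0.0123). It was at 55.5, 52.9 and 52.97 CPM in sgNeg and between 8.12 and 20.9 CPM in the knockouts, a 4.09-fold fall (log2 fold change -2.03, SE 0.12, limma adjusted p = 1.00e-10). Of 21 matrix proteases and genes of plasminogen activation, 5 were lower and 1 higher in all 4 guides, with a median of -0.22. Among all genes tested these shares were 7.16% and 5.36%, so that the higher share was near that of all genes. The gene counted as higher was MMP3, a stromelysin, at 0.169, 0.329 and 1.45 CPM in sgNeg, at 69.3, 68.0 and 59.4 CPM with sgPRMT5-2 and at 0.739, 0.555 and 0.365 CPM with sgWDR77-1. With sgWDR77-1 MMP3 was not higher, as its mean of 0.553 CPM lay below the 0.650 CPM of sgNeg while the fitted log2 fold change was 0.23 (limma adjusted p = 0.908), and the call over the guides was lost without the guide sgPRMT5-2. MMP1, MMP10 and PLAU were called, but their signs differed among the guides. MMP10 had a log2 fold change of 0.33 with sgPRMT5-2 and of -1.15, -2.27 and -1.47 with the other guides.

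Of 16 collagen hydroxylases and crosslinking enzymes, 6 were lower and 1 higher in all 4 guides, against 7.16% and 5.36% of all genes tested. The higher share was near that of all genes, and the list median was 0.01. The higher one was P3H2, a prolyl hydroxylase of collagen, at 57.4, 56.9 and 58.8 CPM in sgNeg and between 87.6 and 242 CPM in the knockouts. LOX, a lysyl oxidase, was among the lower ones, with a log2 fold change of -1.41. Of 9 clade B serpins, 2 were lower (SERPINB13 and SERPINB1) and 2 higher (SERPINB9 and SERPINB8), against 7.16% and 5.36% of all genes tested. The median of the serpins was -0.19. The call of SERPINB9 was lost in 7 of 31 other settings, among them without sgNeg replicate 2 and without sgNeg replicate 3. Of 20 genes of epithelial-mesenchymal transition, 3 were higher and 1 lower, against 5.36% and 7.16% of all genes tested. The lower count is a smaller share than that of all genes, and the list median was 0.06. The cadherins CDH1 of epithelia and CDH2 of mesenchyme were both higher, with log2 fold changes of 0.36 and 0.99. CDH1 did not overlap sgNeg, while CDH2 did, and with sgWDR77-1 CDH2 was not called (0.35, limma adjusted p = 0.229). The log2 difference of CDH2 between the PRMT5 and the WDR77 guides was 0.85 (limma adjusted p = 1.03e-05).

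BMP7, a ligand of the TGF-beta superfamily, was at 23.7, 22.0 and 28.7 CPM in sgNeg and between 3.72 and 9.47 CPM in the knockouts. The guides gave similar BMP7 changes, with log2 fold changes of -2.02, -2.49, -2.22 and -2.17. Of 23 genes of TGF-beta and BMP signaling, 3 were lower and 3 higher in all 4 guides, against 7.16% and 5.36% of all genes. The list median was -0.00. ID1, a transcriptional target of BMP signals, was lower and TGFB2, a ligand, was higher, with log2 fold changes of -0.73 and 0.90. SLIT2, a secreted guidance protein that binds ROBO receptors, was at 1.52, 0.657 and 1.45 CPM in sgNeg and between 2.92 and 13.6 CPM in the knockouts. Of 31 genes of SLIT-ROBO and axon guidance, 8 were lower and 4 higher, against 7.16% and 5.36% of all genes tested. The median of these 31 genes was -0.22. ROBO1, a receptor for SLIT2, had a log2 fold change of 0.43, and the semaphorin SEMA3A one of -0.90.

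**Figure D4:**
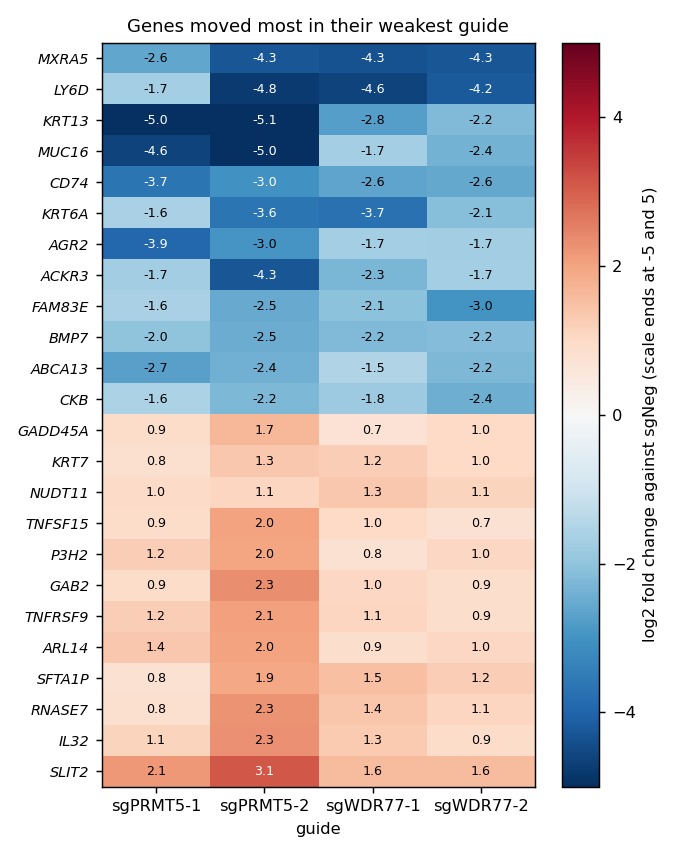
Log2 fold change against sgNeg for each guide (columns) of the 12 lower and the 12 higher genes with the largest change in their weakest guide (rows), among called genes with no overlap between knockout and sgNeg libraries and at least 5 CPM in the higher group, with blue for lower and red for higher and colors that end at -5 and 5. Among these genes the weakest guide of MXRA5 gave -2.58 and that of SLIT2 gave 1.59.

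Of 11 oncofetal and imprinted genes tested, 4 were lower in all 4 guides, against 7.16% of all genes tested, with a median of -0.16. IGF2BP1, an RNA-binding protein, was at 14.7, 13.3 and 13.1 CPM in sgNeg and between 0.353 and 8.24 CPM in the knockouts, lowest with the WDR77 guides. Its log2 difference between the PRMT5 and the WDR77 guides was 2.86 (limma adjusted p = 1.90e-06). IGF2BP3, its relative, had a log2 fold change of -1.01. H19, an imprinted noncoding RNA, was at 5.76, 4.93 and 3.45 CPM in sgNeg and at most 1.06 CPM in the knockouts. PEG10, an imprinted gene, had a log2 fold change of -0.54.

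CD74, the invariant chain of MHC class II, was at 11.8, 6.90 and 9.98 CPM in sgNeg and at most 2.37 CPM in the knockouts. CIITA, the regulator that switches class II genes on, was at 2.71, 2.63 and 3.63 CPM in sgNeg and at most 1.44 CPM in the knockouts. These were the 2 called genes of the 4 of 13 class II genes that could be tested, against 7.16% of all genes tested that were lower in all 4 guides. The median of those 4 was -1.67, and it rests on genes of low count. HLA-DMA, at a mean of 1.15 CPM in sgNeg, was not called (limma adjusted p = 0.0853). Of 16 class I presentation genes, 3 were lower, against 7.16% of all genes tested, with a median of 0.03. The 3 were the immunoproteasome subunits PSMB8, PSMB9 and PSMB10. The calls of all 3 were lost without sgNeg replicate 1 and without the guide sgPRMT5-2.

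Of 43 interferon-stimulated genes, 3 were lower and 1 higher in all 4 guides, with a median of -0.03, and these shares are not above the 7.16% and 5.36% of all genes tested. Their medians by guide were -0.13 with sgPRMT5-1, -0.68 with sgPRMT5-2, 0.48 with sgWDR77-1 and 0.39 with sgWDR77-2. The PRMT5 guides gave lower levels than the WDR77 guides for 37 of the 43 interferon-stimulated genes by the test of that difference, which called 11.4% of all genes tested in that direction. BST2, an antiviral membrane protein, was the gene counted as higher, with log2 fold changes of 0.26, 0.00, 0.85 and 0.90 with the guides in that order. With sgPRMT5-2 BST2 was not higher, as its mean of 115 CPM lay beside 116 CPM in sgNeg (limma adjusted p = 0.988). Its call was lost in 5 of 31 other settings, among them without sgNeg replicate 2 and without sgNeg replicate 3.

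GADD45A, a gene of growth arrest and DNA damage, was at 39.1, 51.3 and 55.5 CPM in sgNeg and between 75.7 and 153 CPM in the knockouts. Each guide alone called GADD45A higher, and the log2 fold change was 1.08 (SE 0.10, limma adjusted p = 8.31e-08). Of 35 CDK inhibitors and p53 targets, 8 were higher and 1 lower in all 4 guides, against 5.36% and 7.16% of all genes tested. The lower count is a smaller share than that of all genes, and the list median was 0.09. The higher ones included CDKN2A, BAX and GDF15, with log2 fold changes of 0.48, 0.36 and 0.45. DDB2, a sensor of ultraviolet damage, was the lower one, at 66.7, 68.5 and 71.5 CPM in sgNeg and between 33.5 and 64.5 CPM in the knockouts.

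Of 30 genes of the ATF4 stress response, 9 were higher and 1 lower in all 4 guides, against 5.36% and 7.16% of all genes. The lower count is a smaller share than that of all genes, and the list median was 0.22. Medians by guide were 0.27 with sgPRMT5-1, 0.35 with sgPRMT5-2, 0.05 with sgWDR77-1 and 0.18 with sgWDR77-2. No member was called higher by every guide alone, and 1 called higher lay above sgNeg in all knockout libraries. Levels were higher with the PRMT5 than with the WDR77 guides for 13 of the 30, against 15.7% of all genes tested. The tRNA synthetases AARS1, SARS1, YARS1 and EPRS1 had log2 fold changes of 0.26, 0.30, 0.24 and 0.22. The pseudokinase TRIB3 and the transcription factor ATF5 had 0.44 and 0.59. The lower one was DDIT4, an inhibitor of mTOR signaling, at 576, 487 and 475 CPM in sgNeg and between 200.4 and 519 CPM in the knockouts.

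Of 55 genes of mitosis and G2/M, 6 were higher and 1 lower in all 4 guides, against 5.36% and 7.16% of all genes tested. The lower count is a smaller share than that of all genes, and the list median was 0.12. The 6 were BUB1, NCAPH, LMNB1, GTSE1, ECT2 and KIF20A, and their log2 fold changes ran from 0.23 to 0.33. The calls of BUB1 and NCAPH were lost without sgNeg replicate 1 and without sgNeg replicate 2, and that of BUB1 also without sgNeg replicate 3. CDC25B, a phosphatase that activates cyclin-dependent kinases, was the lower one. Of 49 DNA replication genes, RPA3 was lower in all 4 guides, with a log2 fold change of -0.40 and a list median of 0.11, and this count of 1 is a smaller share than the 7.16% of all genes tested. Of 38 splicing factors, SON was higher in all 4 guides, with a log2 fold change of 0.23 and a list median of 0.16. This count of 1 is a smaller share than the 5.36% of all genes tested. The call of SON was lost without any one of 8 libraries, among them sgNeg replicates 1 and 3.

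Of the 16 genes of the methylosome and its adaptors, SNRPF, an Sm protein, was lower in all 4 guides, a share near the 7.16% of all genes tested, with a list median of 0.00. Its log2 fold change was -0.27 (limma adjusted p = 0.0457), and its call was lost in 15 of 31 other settings, among them without each of the 3 sgNeg libraries. Of 7 other arginine methyltransferases, CARM1 was higher in all 4 guides, with a log2 fold change of 0.35 and a list median of 0.10. Among all genes tested 5.36% were higher in this way. The call of CARM1 was lost in 5 of 31 other settings, among them without sgNeg replicate 2.

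Of 26 NRF2 antioxidant genes, 6 were lower and 1 higher in all 4 guides, against 7.16% and 5.36% of all genes tested. The higher count is a smaller share than that of all genes, and the list median was -0.10. ALDH3A1, an aldehyde dehydrogenase, was at 68.2, 38.6 and 46.8 CPM in sgNeg and between 1.40 and 33.6 CPM in the knockouts. AKR1C2, an aldo-keto reductase with close paralogs whose reads are hard to assign, had a log2 fold change of -2.58. HMOX1, heme oxygenase, was the higher one, with a log2 fold change of 0.86. Of 19 Notch genes, 6 were lower and 1 higher, against 7.16% and 5.36% of all genes tested, with a median of -0.17. The higher share of the Notch genes was near that of all genes. The receptors NOTCH1 and NOTCH3 had log2 fold changes of -0.42 and -0.64, and the receptor NOTCH2 one of 0.28. NOTCH3 was not called with sgWDR77-1 or sgWDR77-2 (-0.181 and -0.265, limma adjusted p = 0.386 and 0.232), and its knockout levels overlapped sgNeg. The log2 difference of NOTCH3 between the PRMT5 and the WDR77 guides was -0.84 (limma adjusted p = 1.01e-06).

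Of 24 genes of cholesterol synthesis, 5 were higher in all 4 guides, against 5.36% of all genes tested, with a median of 0.14. The 5 included the synthesis enzymes SQLE, DHCR7 and LSS. List medians by guide were 0.115 with sgPRMT5-1, -0.016 with sgPRMT5-2, 0.271 with sgWDR77-1 and 0.195 with sgWDR77-2. Levels were lower with the PRMT5 than with the WDR77 guides for 11 of the 24, against 11.4% of all genes tested. No member was called higher by every guide alone. The calls of SQLE and DHCR7 were lost in 4 and 7 of 31 other settings, among them without sgNeg replicate 2 and without sgNeg replicate 3. Of 34 genes of hypoxia and glycolysis, 4 were lower and 2 higher, against 7.16% and 5.36% of all genes tested, with a median of -0.06, so that the higher share was near that of all genes. SLC2A3, a glucose transporter, was at 15.7, 13.97 and 8.89 CPM in sgNeg and between 0.185 and 8.15 CPM in the knockouts. Of 77 ribosomal protein genes, 9 were lower in all 4 guides, against 7.16% of all genes tested, with a median of -0.09. RPLP0 and RPL27A had log2 fold changes of -0.42 and -0.37. Ribosomal protein genes have many pseudogene copies, and the part of these in the counts was not tested.

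**Figure D5:**
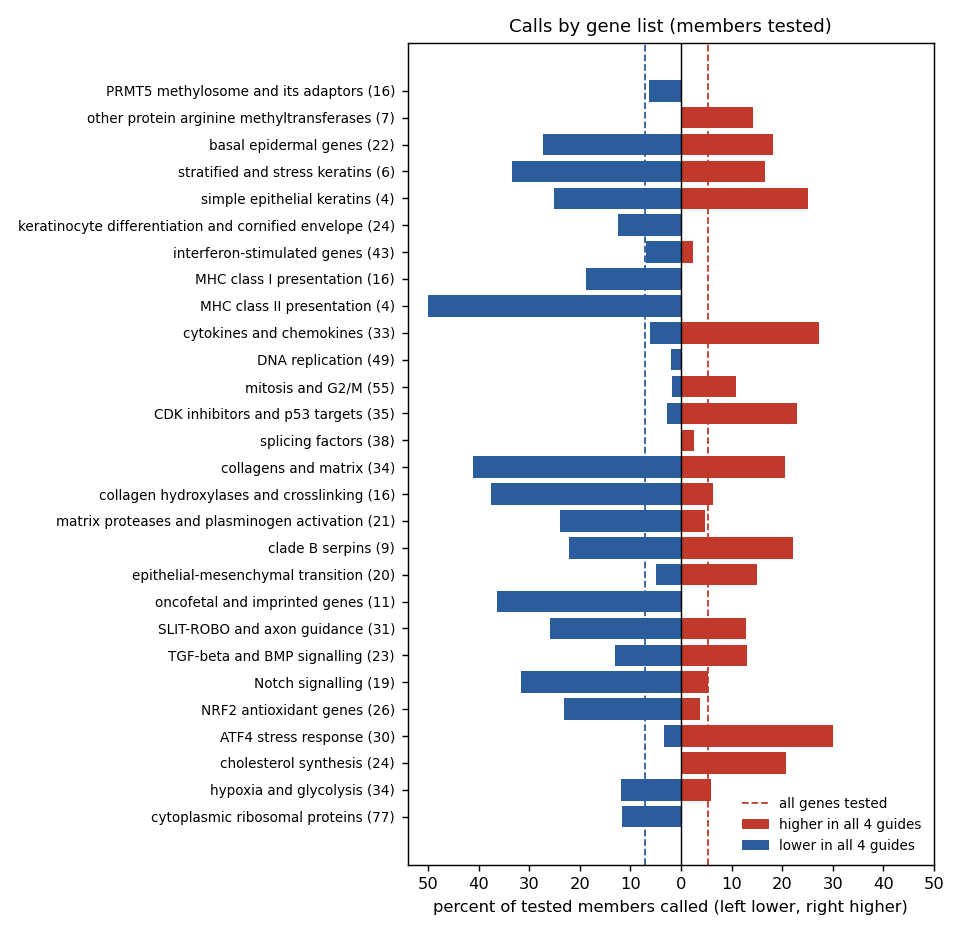
Percent of the tested members of each of 28 gene lists called lower (left) or higher (right) with the same sign in all 4 guides, with the number tested in brackets and dashed lines at the shares over all genes tested, 7.16% lower and 5.36% higher. The ATF4 list and the cytokines reach furthest on the higher side, and the 4 class II genes and the matrix genes on the lower side.

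Some abundant transcripts changed by small factors. OAT, a mitochondrial enzyme of ornithine metabolism, was at 887, 799.9 and 873 CPM in sgNeg and between 1114 and 1265 CPM in the knockouts, and each guide alone called it. F3, the tissue factor that starts coagulation, was at 389, 426 and 447 CPM in sgNeg and between 491 and 1141 CPM in the knockouts. MYH9, a nonmuscle myosin, had a log2 fold change of 0.56. MALAT1, a nuclear noncoding RNA, was at 1451, 4331 and 1783 CPM in sgNeg, where replicate 2 stood apart, and its log2 fold change with sgWDR77-1 was -0.01. Its call as lower was lost in 9 of 31 other settings, among them without sgNeg replicate 2 and without sgPRMT5-2 replicate 1. In sgNeg replicate 2 7.16% of reads lay outside genes, against 2.84% and 3.56% in the other sgNeg libraries. The log2 fold change of MALAT1 was -0.49 with that share as a covariate, where it remained called, and -0.25 with the 3 libraries of over 5% left out, where it was not called.

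The guides differed in how many genes each called alone. Against sgNeg, sgPRMT5-1 called 404 genes (2.87%), sgPRMT5-2 called 4361 (31.0%), sgWDR77-1 called 1333 (9.48%) and sgWDR77-2 called 674 (4.79%). Every guide alone called 33 genes higher (0.235% of the genes tested) and 90 lower (0.640%), and these counts ranged from 12 to 53 and from 42 to 112 when any 1 library was left out, lowest without sgNeg replicates 2 or 3 and without sgPRMT5-1 replicate 3. The 754 genes had median log2 fold changes of 0.33, 0.58, 0.27 and 0.34 with the guides in that order, and the 1007 genes had -0.49, -0.999, -0.54 and -0.63. A test of differences among the 4 guides, which contrasts no guide with sgNeg, called 4316 genes (30.7%). It called 410 of the 754 and 511 of the 1007 genes. The sgNeg libraries still enter the fit, and without sgNeg replicate 1, 2 or 3 this test called 4172, 4282 or 4109 genes. The PRMT5 guides differed from the WDR77 guides for 3813 genes (27.1%), of which 2205 were higher with the PRMT5 guides (15.7%) and 1608 with the WDR77 guides (11.4%). Leaving out sgPRMT5-2 brought this count to 443. At a mean of at least 5 CPM, limma called 0 genes in all 4 guides with the PRMT5 guides on one side of sgNeg and the WDR77 guides on the other, and at an unadjusted p under 0.05 there were 4 with the PRMT5 guides higher and 1 with the WDR77 guides higher.

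Markers of cell types were summed in each library. The 10 squamous markers came to between 3401 and 4474 CPM, with KRT17 the most abundant, while KRT14 was between 0.169 and 0.739 CPM. KRT14 has near-identical copies, and how reads were split among them was not tested. Fibroblast markers came to between 6.69 and 16.2 CPM, mostly COL1A1, with COL1A2 at 0 in all libraries. Immune markers came to between 0.740 and 3.89 CPM, with CD14 the most abundant on average and CD3E at 0. Endothelial markers came to between 12.7 and 36.1 CPM, mostly CDH5 and highest with sgWDR77-1, with KDR at 0. Melanocyte markers came to between 2.55 and 7.48 CPM, mostly PMEL, with TYR and DCT at 0.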

How the data were processed

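The authors aligned reads to hg38 with STAR, counted them per gene with htseq-count and tested them with DESeq2. The deposited values are raw counts per gene, and the table of units lists them as other because an automated reading of these tables failed. The annotation release and strand setting are not stated, so overlapping and antisense genes are uncertain. Reads outside genes, ambiguous reads and reads placed more than once did not enter library sizes or tests.

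Counts were scaled by TMM (trims of 0.3 and 0.05, written out in R) and fitted with limma voom (limma 3.58.1, R 4.3.3), with 1 mean per condition and Benjamini-Hochberg adjustment over 14061 genes. edgeR and DESeq2 were not used. Named genes were PRMT5, WDR77, TP63 and CDKN1A, the 12 in each direction with the largest change in their weakest guide (no overlap with sgNeg, at least 5 CPM in the higher group), the 5 in each direction with the largest CPM difference, the 3 of each of 28 gene lists with the smallest adjusted p and the 3 most different among guides. Other list members, the genes plotted by library and the promoters shown were picked once values were known. Some genes that these rules name are not reported here. The members and lists were chosen with earlier results of these data known. The study calls the replicates biological, and the labels do not say that they were separate cultures, so p-values measure the spread between these libraries.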

Additional observations from a re-analysis of the deposited data

Results flagged for a closer look

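The effects of the guides against the same sgNeg libraries differed by a test of the difference. The test among the 4 guides called 4316 genes and the test of the PRMT5 against the WDR77 guides called 3813, both in limma voom. Named genes are given here only where that second test called them and the mean changes against sgNeg had opposite signs, a narrower choice made after values were seen. PRMT5 differed by -0.68 on the log2 scale (limma adjusted p = 1.87e-05) and WDR77 by 1.99 (limma adjusted p = 5.15e-11), each lower under its own guides. KRT18, a keratin of simple epithelia, differed by 0.58 (limma adjusted p = 2.11e-06), with mean log2 fold changes against sgNeg of 0.26 with the PRMT5 guides and -0.33 with the WDR77 guides. By guide the KRT18 changes were 0.01 with sgPRMT5-1, 0.51 with sgPRMT5-2, -0.53 with sgWDR77-1 and -0.12 with sgWDR77-2, and of the 4 guides sgPRMT5-2 and sgWDR77-1 called it.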

How the results depend on the processing

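No gene called as reported was called in the other direction in any setting. Of the named genes over the alternatives, 3155 results kept their direction and their side of the threshold, 250 lost their call, 29 gained one and 2 reversed. The reversed ones were KRT18, never called, at 0.009 with upper-quartile scaling and 0.104 with the guide sgWDR77-1 left out. The 2-group fit gave 89 higher and 324 lower genes, with 83 above sgNeg in all knockout libraries. A minimum log2 fold change of 1 in either direction gave 44 higher and 353 lower genes, 42 and 339 with the same sign in all 4 guides, 1 and 41 called by every guide alone, 25 and 157 without overlap, 1221 different among guides and 518 between targets. With limma-trend every guide alone called 56 genes lower. Sample quality weights gave 67 higher and 145 lower by every guide, 7405 among guides and 5827 between targets. The covariate gave 17 higher by every guide.

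With sgPRMT5-1 left out 545 genes lay below sgNeg without overlap. With sgPRMT5-2 left out there were 189 higher and 488 lower calls, 127 above without overlap and 443 between targets. With sgWDR77-1 left out there were 1624 and 1931 calls, 665 above and 727 below without overlap, and 1526 between targets. With the 3 libraries of over 5% of reads outside genes left out, an alternative added after the data were seen, 53 genes were called higher by every guide and 559 above and 772 below without overlap. Leaving out each library in turn gave 295 to 1141 higher and 693 to 1466 lower calls, 269 to 911 and 665 to 1276 of the same sign, 12 to 53 and 42 to 112 by every guide, and 365 to 528 below without overlap. Some of these settings hold fewer libraries, and the cause of other shifts was not tested.

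With the replicate block there were 819 higher and 972 lower calls, and libraries of the same replicate number were not more alike, so pairing was not used. The edgeR and DESeq2 alternatives were not run. Depth limits genes of low count, where libraries at 0 make the fitted change depend on the offset of voom.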
